A study of Mus musculus with 34 samples.

Results

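The genes described here are the olfactory receptor genes of the mouse, chosen by name as every gene whose symbol is Olfr followed by a number alone. There were 995 such genes among the 29006 genes of the soma and PGC gene tables. Among the 28706 genes of soma 956 had such a name, among the 27021 genes of PGCs 798 did, and 759 were measured in both. RefSeq annotation of GRCm38.p6 lists 1117 genes with such a name, of which 994 were measured in at least 1 table and 123 in neither. Names that begin with Olfr and carry a suffix, 20 in soma and 16 in PGCs, were left out.

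The data are CUT&RUN profiles of H3K9me2, dimethylated lysine 9 of histone H3, in sorted cells of gonads from female C57BL/6 Gulo-/- embryos at embryonic day 13.5. Gulo encodes gulonolactone oxidase, which mice need to make vitamin C. All embryos of both groups therefore depended on the vitamin C of the mother's diet. It was supplied at physiological levels or withdrawn for the early part of gestation. Oct4GFP+ primordial germ cells (PGCs) gave 5 supplied and 5 withdrawn H3K9me2 libraries, and Oct4GFP- soma, a mixture of all other cells of the gonad, gave 4 supplied and 3 withdrawn ones. The headers of the tables name no antibody, and the IgG libraries have the same group sizes, so that the tables hold H3K9me2 is assumed throughout. They give chromatin signal and no expression, so the sorted cell types could not be checked against their markers, and where the signal of a mixture differs, the share of cells with the mark and the amount per cell cannot be told apart. The submitters describe the libraries as biological replicates, and which litters they came from is not stated.

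Olfactory receptors are G-protein-coupled receptors of the sensory neurons of the nose, and their genes form the largest gene family of the mouse genome. They lie in clusters on many chromosomes, each gene with a short coding sequence in a single exon and, for most, small upstream exons that annotation often lacks. In olfactory neurons each cell expresses a single allele, while the other copies are held in heterochromatin marked on lysine 9 of histone H3. Outside the nose the clusters are known as late-replicating, lamina-associated regions in which H3K9me2 is written mainly by the methyltransferases Ehmt1 and Ehmt2.

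The annotated starts of these genes are shown first, because the kind of gene model sets the annotated span. The interval over which the authors counted signal is not described. RefSeq windows of 250 bases before to 50 bases after the annotated start, 300 in all, were found for 836 members (840 windows, GRCm38.p6). In 604 of these windows (71.9%) the annotated start was itself a start codon, ATG, against 5.51% of the 32544 windows of all genes, so most of these windows lie beside the coding sequence. The median GC content was 35% for members and 53% for all windows. The letters TAATTA, the core recognised by homeodomain factors such as Lhx2, stood in 18.8% of the members' windows and 5.29% of all windows. The recognition motif of Ebf factors, TCCC and GGGA with any 2 bases between them, stood in 0.476% and 0.913%. The shares of both motifs were not set beside windows of like GC content, so they do not show enrichment or depletion of either motif. Each motif reads the same on both strands, and the letters of one cannot overlap those of the other. Of the windows printed here, those of Olfr109 and Olfr541 run 50 bases into the coding sequence, with the ATG in capitals. The other windows hold only the 250 bases before an annotated start upstream of the coding sequence, with TAATTA in capitals. Olfr109 had the smallest p in PGCs and Olfr541 the largest log2 fold change in soma. Olfr183 had the longest gene model of the members with a printed window, Olfr558 is a class I receptor and Olfr570 had the smallest p in soma. The window of Olfr183 lies inside its 71199 bp model (58929418 to 59000616) and not at the end of that span.
Olfr109 (chr17:37465958-37466257, plus strand): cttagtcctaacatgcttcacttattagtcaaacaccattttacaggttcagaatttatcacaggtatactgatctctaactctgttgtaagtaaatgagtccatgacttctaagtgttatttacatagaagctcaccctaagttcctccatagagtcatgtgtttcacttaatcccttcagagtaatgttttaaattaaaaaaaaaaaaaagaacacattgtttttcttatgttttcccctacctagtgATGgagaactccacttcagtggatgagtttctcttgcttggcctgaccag
Olfr541 (chr7:140704003-140704302, plus strand): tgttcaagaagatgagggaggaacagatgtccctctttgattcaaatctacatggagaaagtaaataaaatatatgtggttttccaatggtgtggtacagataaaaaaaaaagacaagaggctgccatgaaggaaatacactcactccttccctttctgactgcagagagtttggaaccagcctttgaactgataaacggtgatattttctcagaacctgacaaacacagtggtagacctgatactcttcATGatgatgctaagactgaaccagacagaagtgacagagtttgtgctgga
Olfr183 (chr16:58995154-58995403, plus strand): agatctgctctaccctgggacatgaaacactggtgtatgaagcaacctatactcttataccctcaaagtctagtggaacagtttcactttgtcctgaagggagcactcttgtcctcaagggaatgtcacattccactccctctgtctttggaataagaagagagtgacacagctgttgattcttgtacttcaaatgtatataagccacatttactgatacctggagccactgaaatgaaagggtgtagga
Olfr558 (chr7:102702073-102702322, plus strand): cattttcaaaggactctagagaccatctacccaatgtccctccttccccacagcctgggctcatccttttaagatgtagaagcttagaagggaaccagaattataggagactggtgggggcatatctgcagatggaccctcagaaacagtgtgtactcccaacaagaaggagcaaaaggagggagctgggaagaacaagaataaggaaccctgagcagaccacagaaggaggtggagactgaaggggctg
Olfr570 (chr7:102900092-102900341, plus strand): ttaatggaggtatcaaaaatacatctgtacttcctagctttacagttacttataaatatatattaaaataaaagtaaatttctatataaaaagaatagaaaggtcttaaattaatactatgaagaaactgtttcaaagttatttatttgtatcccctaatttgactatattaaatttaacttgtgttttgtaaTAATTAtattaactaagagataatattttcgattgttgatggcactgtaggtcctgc
TAATTA stood in the window of Olfr570 and in none of the other windows shown, and the Ebf motif in none of them.

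H3K9me2 over olfactory receptor genes was measured at few reads. In the authors' deposited table the members had a median average of 1.00 log2 CPM in soma, with an interquartile range from 0.57 to 1.64, against 3.40 for all genes. In PGCs the median average was 1.54 in the authors' deposited table, with an interquartile range from 1.17 to 2.10, against 3.52 for all genes. From the lowest averages the geometric mean effective library size was put at 1512598 reads or more for soma and 613601 or more for PGCs, and the median member stood for about 2.53 and 1.28 reads per library, both lower estimates, as are all read numbers here. In soma 97.2% of the members lay below the median average of all genes, and 27 lay above it.

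The low level went with short gene models. The median annotated span was 951 bp, and 763 of the soma members (79.9%) spanned 900 to 1100 bp. Across all annotated soma genes the average followed the log2 of the span (Pearson r = 0.92 over 26517 genes), and across the members less closely (r = 0.69 over 955 genes). These are descriptions across genes of the same libraries, and genes are not independent replicates.

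**Figure D1:**
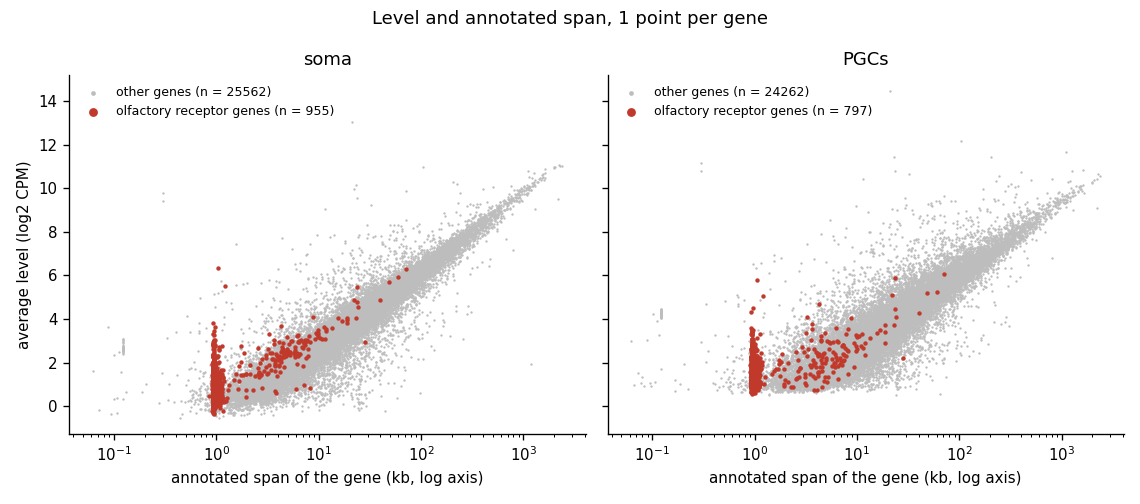
Average level in the authors' deposited table (log2 CPM) against the annotated span of the gene (kb, log axis), 1 point per gene, for soma and PGCs, with olfactory receptor genes in red. Most members stand in a narrow column near 1 kb (763 soma members span 900 to 1100 bp), and Olfr570 stands above that column at 6.33 in soma.

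Set beside other protein-coding genes of the same span, the receptor genes were more often measured, and their median level was higher in soma but lower in PGCs at the longer spans. Of the annotated receptor genes from 900 to under 1100 bp, 84.1% were in the soma table, against 39.2% of the other protein-coding genes of that span. In PGCs the shares were 67.9% and 15.5%. The median averages in this span were 0.87 for receptors and 0.48 for the others in soma, and 1.43 and 1.35 in PGCs, among the genes that passed the authors' filter. From 4000 to under 16000 bp, 86 receptor genes had a median average of 2.66 in soma, against 2.56 for 5491 other protein-coding genes, and in PGCs the medians were 2.36 and 2.65. From 16000 to under 100000 bp they were 4.66 and 4.52 in soma and 4.19 and 4.56 in PGCs. The authors' filter on genes is not described in the labels or headers, and no test was made of these levels.

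Per kb of span, the 763 short members had a median level of 0.93 log2 CPM in soma, an interquartile range from 0.56 to 1.38 and a highest value of 6.26. In PGCs 616 short members had a median of 1.50 on the same scale, with an interquartile range from 1.19 to 1.95. The 2 tables were scaled separately and filtered at different depths, so the levels of soma and PGCs are given side by side and not compared. The order of members was shared in part: over the 759 members in both tables the averages had a Pearson r of 0.82, and over the 579 short ones 0.74. Both estimates share gene length and mappability, and reads of near-identical receptors may have been split or lost in mapping in a way that is not documented here.

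Olfr570 (chromosome 7, 102900342 to 102901386) had the highest average of any member in soma, 6.33 log2 CPM in the authors' deposited table, about 121 reads per library over an annotated 1045 bp. In PGCs its average was 5.78 in the authors' deposited table. Among short members it was the only one above 4 log2 CPM per kb in soma, where 8 stood above 3. Values per kb divide by the annotated span, while the interval the authors counted is not described. No IgG signal was subtracted here, so a high value per kb may not be a high density of the mark. Olfr56, whose model of 1215 bp is just too long to count as short, stood at 5.24 per kb in soma and 4.80 in PGCs (chosen after its values were seen). In PGCs 21 short members stood above 3, and the 3 above 4 were Olfr570, Olfr1351 and Olfr1256, the last 2 chosen after their values were seen. The next highest averages in soma belonged to long models, Olfr183 at 6.28 over 71199 bp, Olfr1280 at 5.93 over 60182 bp and Olfr687 at 5.72 over 48745 bp in the authors' deposited table. Olfr183 overlaps the model of Olfr182-ps1, and Olfr1280 those of Olfr1281, Olfr1282 and Olfr1283, so their signal may cover more than 1 receptor. The lowest averages in soma were Olfr382 at -0.38, Olfr99 and Olfr1505 at -0.31 each and Olfr532 at -0.25 in the authors' deposited table. In PGCs the lowest were Olfr1537 at 0.57 and Olfr116, Olfr724 and Olfr1495 at 0.62 in the authors' deposited table.

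The first comparison asked whether withdrawal of vitamin C changed the mark over receptor genes in soma. In the authors' deposited table, 174 of the 956 members rose past an adjusted p of 0.05, and 1 fell, where 68.2% of all soma genes rose and 0.101% fell. The median log2 fold change of the members was 0.78, or 1.72-fold, against 1.04, or 2.06-fold, over all genes. The interquartile range of the members ran from 0.27 to 1.18, and 825 (86.3%) were above 0, against 96.8% of all genes. How the libraries were scaled is not described, so a change shared by most genes cannot be told apart from a difference in scaling. Here and below, rose and fell refer to these scaled values. The fold changes of single members carried a large error: their SD was 0.71 and the root mean square of their standard errors, each the log2 fold change divided by t, was 0.68. The limma p-values of the authors were under 0.05 before adjustment for 228 members (23.8%, 225 higher and 3 lower), against 71.8% of all genes. With 5 residual degrees of freedom, those of the libraries alone, in place of those pooled over all genes, 25 members rose, against 32.1% of all genes. At an adjusted p under 0.01, 66 members rose and 0 fell, where 51.1% of all genes rose and 0.0209% fell. Without the lowest 25% of averages, 85 of 171 members rose, against 80.3% of the genes left.

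**Figure D2:**
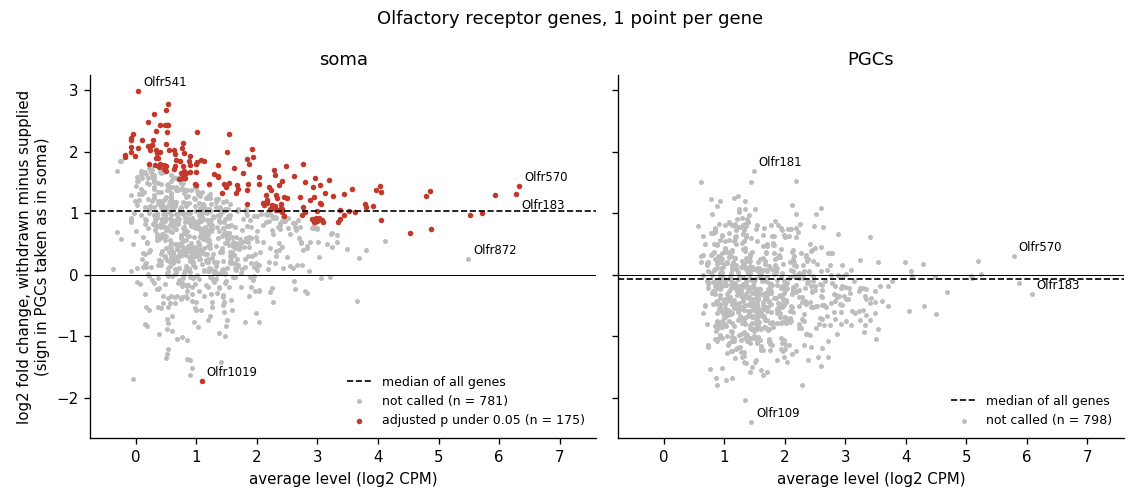
Log2 fold change against average level (log2 CPM) in the authors' deposited table for each olfactory receptor gene, in soma and PGCs, with genes past an adjusted p of 0.05 in red and the median of all genes dashed. In soma 174 members rose and Olfr1019 is the only red point below 0, and in PGCs none of 798 passed.

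Longer models rose more often. Of the short members 92 (12.1%) rose in soma, and of the 190 members over 1100 bp 81 (42.6%) did. Of the 579 soma members whose every model begins at a start codon 82 (14.2%) rose, and of the 227 whose model begins elsewhere 64 (28.2%) rose. The share also climbed with span among other protein-coding genes. From 900 to under 1100 bp 12.0% of receptor genes and 15.7% of the others rose, with median log2 fold changes of 0.72 and 1.01. From 1100 to under 4000 bp 24.7% and 28.3% rose, with medians of 0.91 and 0.96. From 4000 to under 16000 bp 54.7% and 55.3% rose, with medians of 0.92 and 1.02. From 16000 to under 100000 bp, 13 of 14 receptor genes (92.9%) rose, against 85.0% of other protein-coding genes of that span. There the order of the medians was the other way, with 1.20 for receptor genes and 1.00 for the others. Of the 173 members that rose and have an annotated span, 10 overlap the model of another gene, so their signal may not be their own.

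The member with the smallest p was Olfr570, which rose by 1.44 ± 0.24 (log2, SE; limma adjusted p = 1.6e-07) in the authors' deposited table. Its implied group averages were 5.71 log2 CPM in supplied and 7.15 in withdrawn libraries. Olfr183 (chromosome 16, 58929418 to 59000616) rose by 1.31 ± 0.24 (limma adjusted p = 1.33e-06) in the authors' deposited table. Olfr1280 (chromosome 2, 111313950 to 111374131) rose by 1.30 ± 0.24 (limma adjusted p = 2.63e-06) in the authors' deposited table. Olfr91 (chromosome 17, 37092845 to 37132991), a 40147 bp model that overlaps Olfr92, rose by 1.36 ± 0.28, and Olfr165 (chromosome 16, 19406991 to 19430704), which overlaps Gm25762, by 1.28 ± 0.28 in the authors' deposited table. The largest fold change among members was that of Olfr541 (chromosome 7, 140704253 to 140705191; chosen after its values were seen), 2.99 ± 0.81 (limma adjusted p = 0.000804) in the authors' deposited table, at about 1.06 reads per library.

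At the other end, Olfr1019 (chromosome 2, 85840857 to 85841789), a receptor for the fox odour trimethylthiazoline, fell by 1.74 ± 0.77 on the log2 scale (limma adjusted p = 0.0361) in the authors' deposited table. Its implied averages were 1.84 log2 CPM in supplied and 0.10 in withdrawn libraries, at about 2.72 reads per library. The call was lost at an adjusted p under 0.01 and with the residual degrees of freedom. The next by p were Olfr575 at -1.41 ± 0.69, Olfr281 at -1.64 ± 0.80, Olfr735 at -1.52 ± 0.79 and Olfr978 at -1.71 ± 0.94 in the authors' deposited table, and these did not pass. Among well-covered members, Olfr872 (chromosome 9, 20237162 to 20260913), which overlaps Gm25425, had 0.25 ± 0.26 (limma adjusted p = 0.361) in the authors' deposited table at an average of 5.49. Its 95% interval of the fold, not adjusted, ran from 0.841 to 1.69, below the 2.06-fold of the median gene.

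Of 14 receptors listed for a known ligand or use in studies of olfaction, 12 were measured in soma, of which 5 rose and 1, Olfr1019, fell in the authors' deposited table, where 68.2% of all soma genes rose and 0.101% fell. Olfr78, a class I receptor of short-chain fatty acids that is also expressed in the carotid body and kidney, rose by 1.38 ± 0.32 (limma adjusted p = 0.000104) over an 18751 bp model that overlaps Olfr560 in the authors' deposited table. Olfr1507, known as MOR28, rose by 1.52 ± 0.46 in the authors' deposited table, in a model that overlaps Tcra. Olfr2, the octanal receptor known as I7, rose by 1.10 ± 0.42, and Olfr1440, a muscone receptor, by 0.93 ± 0.40 in the authors' deposited table. Olfr558, a class I receptor also expressed outside the nose, rose by 0.86 ± 0.37 in the authors' deposited table. The values that did not pass were 0.96 ± 0.52 for Olfr160 (M72), 1.00 ± 0.70 for Olfr151 (M71), 0.80 ± 0.49 for Olfr544, a receptor of azelaic acid, and 0.52 ± 0.42 for Olfr73, a eugenol receptor, in the authors' deposited table. Olfr15 stood at 0.97 ± 0.82 and Olfr124 (SR1) at 0.19 ± 0.88 in the authors' deposited table. Olfr17 (P2) was measured in PGCs alone, at -0.98 ± 0.74 in the authors' deposited table, and Olfr16 (MOR23) in neither table.

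Because the family has few reads, members were also set beside other genes with a like average. Below an average of 1 log2 CPM the median log2 fold change in soma was 0.87 for 477 receptor genes and 1.20 for 2424 other genes, and 13.8% and 29.8% rose. Between 1 and 2 the median log2 fold change in soma was 0.59 for 307 receptor genes and 1.13 for 3867 other genes, and 9.12% and 43.1% rose. Between 2 and 3 the medians were 0.86 and 1.06, and 37.7% and 59.8% rose. Between 3 and 4 they were 0.90 and 1.04, and 61.1% and 76.7% rose. Above 4 the 14 receptor genes had a median of 1.14 and the other genes 1.02, with 85.7% and 88.9% risen. So the lower median held in each range of averages up to 4 and not above it. On the scale of change relative to the median of all genes, 642 members (67.2%) lay below it. After that median was subtracted, 4 members passed an adjusted p of 0.05 as lower and 0 as higher, where 1.3% and 0.0488% of all genes passed. They were Olfr1019 at -2.78, Olfr575 at -2.46, Olfr19 at -1.81 and Olfr1351 at -1.47 relative to the median of the authors' deposited table, the last 2 outside the naming rule and chosen after their values were seen.

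**Figure D3:**
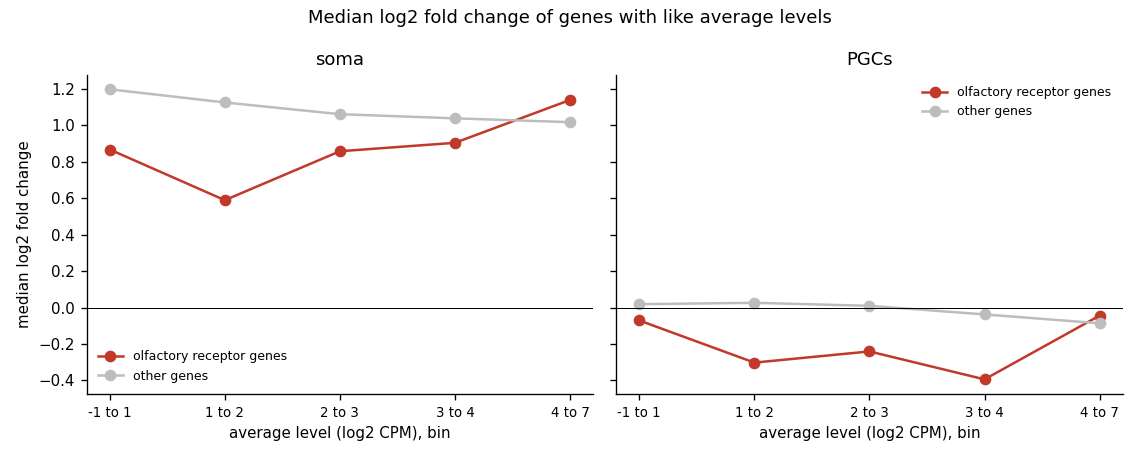
Median log2 fold change in the authors' deposited table by range of average level (log2 CPM), olfactory receptor genes in red and other genes in grey. In soma the receptor genes lie below the others in the 4 lower ranges (0.59 against 1.13 between 1 and 2) and above them at 4 to 7.

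The second comparison asked the same of PGCs. None of 798 members (0 higher and 0 lower) passed an adjusted p of 0.05 in the authors' deposited table, and 0% of all PGC genes did. The limma p-values were under 0.05 before adjustment for 23 members (4 higher and 19 lower), against 0.984% of all genes. The PGC table does not show which vitamin C state was subtracted, so its sign was taken as that of soma, where withdrawn minus supplied left a misfit of 0.381% and the reverse 3.22%. With that sign the median log2 fold change of the members was -0.25, with an interquartile range from -0.64 to 0.16, against -0.064 over all genes, and 263 of 798 were above 0 in the authors' deposited table. The SD of the members was 0.60 and the root mean square of their standard errors 0.72, so the spread among members was smaller than the error of a single member.

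By range of average, the receptor genes in PGCs had medians of -0.071 below 1, -0.30 between 1 and 2, -0.24 between 2 and 3 and -0.39 between 3 and 4, against 0.019, 0.026, 0.0099 and -0.037 for other genes in the authors' deposited table. Above 4 the order was the other way, with -0.044 for 15 receptor genes and -0.086 for other genes. Olfr109 (chromosome 17, 37466208 to 37467152) had the smallest p, with -2.39 ± 0.73 (p = 0.000965 by limma before adjustment, adjusted p = 1) in the authors' deposited table. With the sign taken as in soma, its implied averages were 2.65 log2 CPM in supplied and 0.25 in withdrawn libraries. With the sign turned, both averages would change places. Its level was about 1.17 reads per library. Olfr705 had -2.04 ± 0.74, Olfr1047 -1.79 ± 0.68, Olfr913 -1.80 ± 0.76 and Olfr1250 -1.72 ± 0.75 in the authors' deposited table. In the other direction stood Olfr181 at 1.68 ± 0.73, Olfr119 at 1.52 ± 0.68, Olfr1404 at 1.50 ± 0.73, Olfr1495 at 1.51 ± 0.77 and Olfr536 at 1.29 ± 0.74 in the authors' deposited table. These did not pass after adjustment. Olfr570, which led in soma, had 0.30 ± 0.47 and Olfr183 -0.32 ± 0.46 in the authors' deposited table, at averages of 5.78 and 6.08.

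The difference between both changes was tested over 26721 shared genes. No member and no other gene passed an adjusted p of 0.05, the smallest being 0.105, and 0% were called. Before adjustment 99 members (13.0%) had a p under 0.05, against 34.5% of all shared genes. The median difference, soma minus PGCs, was 0.91 for the members and 1.07 for all genes, and 0.46 for the members with the sign of PGCs turned. The value of all genes with the sign turned is not given here. How far members stood from all genes is therefore shown for the assumed sign alone. Of the 759 members 420 were above 0 in soma and below 0 in PGCs, 229 above 0 in both, 84 below 0 in both and 26 below 0 in soma and above 0 in PGCs. With the sign of PGCs turned, the 420 would be above 0 in both and the 229 of opposite sign. With the sign as in soma, the smallest p-values belonged to Olfr975 with a difference of 3.57 ± 1.01, Olfr65 with 3.55 ± 1.10 and Olfr1047 with 2.86 ± 0.88. In the other direction they belonged to Olfr735 with -2.32 ± 1.08, Olfr1303 with -2.01 ± 1.05 and Olfr281 with -1.72 ± 1.08. Turned, these differences were 0.30 for Olfr975, 2.01 for Olfr65, -0.73 for Olfr1047, -0.72 for Olfr735, -0.78 for Olfr1303 and -1.56 for Olfr281. With that turned sign, Olfr541 (3.97 ± 1.12, adjusted p = 0.0458) and Olfr181 (3.15 ± 0.86, adjusted p = 0.0391) passed, and 0.958% of all shared genes did. Over the 759 members the log2 fold changes of soma and PGCs had a Pearson r of 0.13.

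The members fell into 50 genomic clusters when neighbours more than 1 Mb apart were split, and 27 clusters had at least 5 members in each table. In soma the median log2 fold change was above 0 in all 27, from 0.30 on chromosome 4 (43695000 to 43855463, 6 members, led by Olfr70) to 1.03 on chromosome 7 (140162010 to 140705191, 13 members in soma, led by Olfr46). All 27 medians lay below the 1.04 of all genes. In PGCs the medians ran from -0.75 on chromosome 4 (118665519 to 118894032, 8 members) to 0.48 on chromosome 14 (52372110 to 52495695, 5 members), and 24 were below 0 and 3 above. The ends of both ranges were small clusters. Of the variance among members, 0.302% in soma and 1.84% in PGCs lay between clusters after adjustment for their number. The cluster medians of soma and PGCs had a Pearson r of 0.32 over 27 clusters. Neighbouring short members within 50 kb had an r of 0.017 for the log2 fold change over 546 pairs in soma, and 0.0086 over 403 pairs in PGCs.

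**Figure D4:**
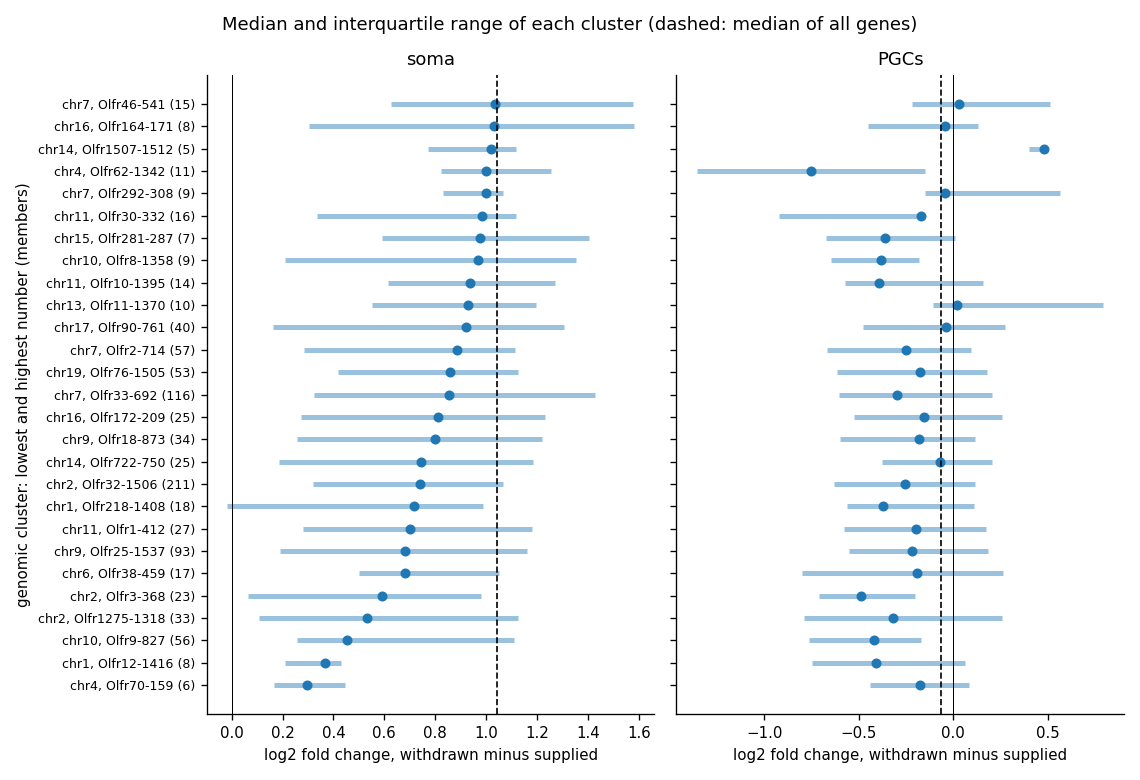
Median (point) and interquartile range (bar) of the log2 fold change in the authors' deposited table for the 27 clusters with at least 5 members in each table, ordered by soma, with all members of the cluster in brackets and the median of all genes dashed. In soma each point lies between 0.30 and 1.03, and in PGCs 24 points lie below 0.

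The counts by cluster are to be read beside the 68.2% of all soma genes that rose. The largest cluster, on chromosome 2 (85330967 to 90282573), held 204 members in soma, of which 30 rose and 1 fell, and whose median was 0.74, in the authors' deposited table. Its leading member, Olfr1506, rose by 1.88 ± 0.55 in the authors' deposited table. The cluster on chromosome 7 (102476773 to 105369317) holds the class I receptors, the fish-like group of the family. Of its 113 members in soma 28 (24.8%) rose, Olfr570 and Olfr78 among them, and their median was 0.85, with an interquartile range from 0.32 to 1.43, in the authors' deposited table. In PGCs its 97 members had a median of -0.29. On chromosome 9 (37711348 to 40188094), the cluster that holds M71 and M72, 16 of 90 rose with a median of 0.68, led by Olfr943 at 1.44 ± 0.32 in the authors' deposited table. On chromosome 10 (128989914 to 130211128) 11 of 54 rose with a median of 0.45, led by Olfr805 at 1.51 ± 0.41 in the authors' deposited table. In PGCs the same chromosome 10 cluster had a median of -0.42, with 7 of 45 members above 0. The chromosome 14 cluster of Olfr1507 to Olfr1512, which is the target of the H enhancer, stood at a median of 1.02 in soma, and 2 of its 5 members rose in the authors' deposited table.

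The share of variance between clusters was larger for the levels of short members than for the changes of all members. These shares are of unlike sets, and the changes of single members carry a large error, so they are not like measures. Per kb of short members, the cluster medians ran from 0.35 to 1.58 log2 CPM in soma and from 0.89 to 2.40 in PGCs, with 7.47% and 5.33% of the variance between clusters. The highest in both was the cluster of 9 members on chromosome 10 (78498183 to 79018283), with 4 short members in each table, and the other cluster of that chromosome stood at 1.35 and 2.07. The lowest were the chromosome 7 cluster of Olfr301 in soma, at 0.35, and the chromosome 7 cluster of Olfr46 in PGCs, at 0.89. The cluster levels of soma and PGCs had a Pearson r of 0.85 and a Spearman rho of 0.80 over 27 clusters, which share sequence and mappability. Neighbouring short members within 50 kb had an r of 0.15 for the average in each table.

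By receptor number, in 16 blocks of 100, the medians were closer together. In soma they ran from 0.59 for numbers 700 to 799 to 1.01 for 1500 to 1599, the last a block of 12 members, and all 16 lay below the median of all genes. In PGCs they ran from -0.49 for 300 to 399 to 0.22 for 1500 to 1599. Blocks follow the genome only in part. The numbers 1000 to 1099, 1100 to 1199 and 1200 to 1299 lie wholly on chromosome 2 and 500 to 599 and 600 to 699 on chromosome 7, while 0 to 99 are spread over 13 chromosomes. In the 500 and 600 blocks 12 of 62 and 17 of 72 soma members rose, and in the 1000 to 1200 blocks 11 of 63, 7 of 64 and 14 of 72 in the authors' deposited table, against 68.2% of all soma genes.

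**Figure D5:**
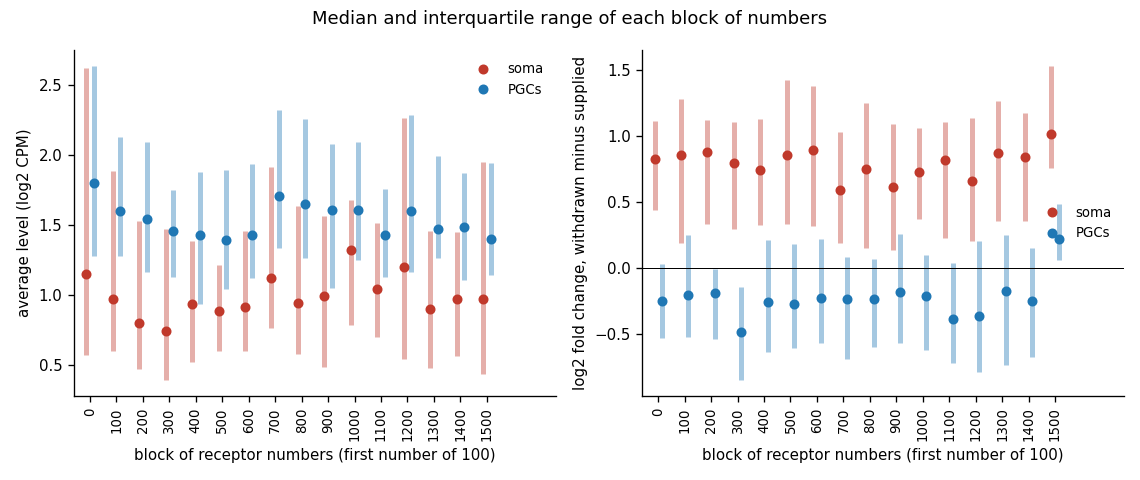
Median (point) and interquartile range (bar) of the average level (log2 CPM, left) and of the log2 fold change (right) in the authors' deposited table by block of 100 receptor numbers, soma in red and PGCs in blue, each table on its own scale. Soma medians of change lie between 0.59 and 1.01 and PGC medians between -0.49 and 0.22, and the interquartile ranges of the soma blocks overlap one another.

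Genes that act with the receptors were described from lists. Of 19 measured genes of olfactory signal transduction and receptor transport, 16 (84.2%) rose in soma in the authors' deposited table, against 68.2% of all genes. Their median was 1.05, beside 1.04 over all genes. Slc24a4, the exchanger that ends the odour response, rose by 1.17 ± 0.23, and the channel subunits Cngb1 by 1.24 ± 0.25 and Cnga2 by 1.44 ± 0.32 in the authors' deposited table. Pde1c, a phosphodiesterase, rose by 0.96 ± 0.20 and Gnal, the olfactory G protein, by 1.05 ± 0.23 in the authors' deposited table. Reep1 at 0.45 ± 0.22, Ano2 at 0.29 ± 0.20 and Gng13 at 0.073 ± 0.94 did not pass in the authors' deposited table. Of 23 measured genes of receptor choice and of H3K9 methylation, 14 (60.9%) rose in soma in the authors' deposited table, against 68.2% of all genes. Their median was 0.65. Ebf4, Ebf2 and Ebf1, factors that bind receptor promoters and enhancers, rose by 1.16 ± 0.25, by 0.86 ± 0.23 and by 0.65 ± 0.20 respectively in the authors' deposited table. Kdm1a, a histone demethylase needed for receptor choice, rose by 1.16 ± 0.28 and Cbx3, a heterochromatin protein, by 1.70 ± 0.40 in the authors' deposited table. The other 9 did not pass, among them Ebf3 at 0.33 ± 0.22, Lhx2, a homeodomain factor of receptor choice, at 0.48 ± 0.29, and Ehmt2, an H3K9 methyltransferase, at 0.48 ± 0.31 in the authors' deposited table (chosen after their values were seen). In PGCs 0 of 17 and 0 of 23 passed. These values are of chromatin signal over the genes and say nothing of their expression.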

How the data were processed

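H3K9me2 and IgG CUT&RUN libraries of 1000 sorted cells each, with 18 PCR cycles, were assigned to groups by sorted population, antibody and diet per the labels. The submitters' processing notes name Trim Galore 0.4.0, Bowtie2 2.2.5, Picard and mm10. Gene counting, filtering and scaling are not described there. The authors' deposited tables are voom and limma results per the file headers: log2 fold change, average as log2 CPM, t (a score), p-value, Benjamini-Hochberg adjusted p-value and B (a natural log of odds). The headers name no antibody and the IgG groups have the same sizes, so the tables were taken as H3K9me2 without a check. The 17 IgG libraries and 2 repeat tables were not used here.

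The tables hold no values per library. Depth was derived from the lowest averages, so read numbers are lower estimates, and PCR reads are not independent molecules. The direction in soma was read from the standard errors, which depend on the number of libraries on each side. Implied group averages follow from the average, the fold change and the group sizes. The soma minus PGC difference was set against the combined standard error of both estimates, taken as independent, in a two-sided test (Satterthwaite) with Benjamini-Hochberg adjustment over all shared genes. Scripts were tested on simulated data (R 4.3.3, limma 3.58.1) and run with Python 3.11.15, pandas 2.3.3 and scipy 1.17.1. Spans and start windows are from RefSeq GRCm38.p6, the assembly of mm10.

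Named are the 5 members with the smallest p in each direction per table, the 4 highest and 4 lowest averages, the 3 leading differences in each direction, the leading member in soma of each cluster described, listed known receptors, and the leading genes by p of the other lists. Members and lists were chosen with earlier results of these data known.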

Additional observations from a re-analysis of the deposited data

How the results depend on the processing

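The number of members that rose in soma was 174 at an adjusted p under 0.05. It was 66 under 0.01 (51.1% of all genes rose), 25 with the residual degrees of freedom (32.1%), 85 of 171 without the lowest 25% of averages (80.3%) and 0 after the median of all genes was subtracted (0.0488%). The 1 member that fell became 0, 0 and 0 under the first 3 of these and 4 under the last, where 0.0209%, 0%, 0.125% and 1.3% of all genes fell. The member median in soma was 0.88 without the lowest 25% of averages and -0.26 less the median of all genes, and that in PGCs was -0.19 less the median. The range of cluster medians, 0.74 in soma and 1.23 in PGCs, was 0.42 and 0.71 by blocks of 100 numbers, and the same with a gap of 0.5 Mb. With the PGC sign turned 2 members differed between soma and PGCs. Taking all names that begin with Olfr, or the members in both tables alone, gave 181 and 139 that rose and left the PGC counts at 0.

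Less the median of all genes, these named members turned sign in soma: Olfr15 -0.068, Olfr56 -0.069, Olfr70 -0.27, Olfr73 -0.52, Olfr109 -0.16, Olfr119 -0.12, Olfr124 -0.85, Olfr151 -0.038, Olfr160 -0.080, Olfr365 -0.15, Olfr382 -0.94, Olfr449 -0.13, Olfr536 -0.29, Olfr544 -0.24, Olfr558 -0.18, Olfr687 -0.040, Olfr705 -0.24, Olfr872 -0.79, Olfr913 -0.33, Olfr1250 -0.78, Olfr1440 -0.11, Olfr1495 -0.32 and Olfr1505 -0.34. In PGCs they were Olfr56 0.034, Olfr78 0.049, Olfr165 0.020 and Olfr510 0.0082. Of 37 values of single named members that passed, 36 lost their call under that setting, signs that turned included, 20 with the residual degrees of freedom and 9 under 0.01. Subtraction of the median is what turns these signs, by its own construction. No paired analysis was possible because the tables hold no values per library, and no library could be left out for the same reason. Depth limits single members: their median was about 2.53 reads in soma and 1.28 in PGCs, both lower estimates, with a median standard error of 0.69 and 0.74, against a median change of 1.04 over all soma genes. Whether depth sets the low share of members that rose was not tested.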

Other observations

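Other chemoreceptor families, none of them members, are given beside the 68.2% of all soma genes that rose. Of 116 vomeronasal type 2 receptor genes, which detect peptides and proteins and have models of several exons, 113 rose in soma in the authors' deposited table. Their median change was 1.18 and their median average 4.33 log2 CPM. Vmn2r1 rose by 1.38 ± 0.24 and Vmn2r55 by 1.64 ± 0.29 in the authors' deposited table. Of 108 vomeronasal type 1 receptor genes 33 rose, with a median of 1.05 at a median average of 0.52, and Vmn1r63 rose by 1.54 ± 0.34 in the authors' deposited table. The median average of the olfactory receptors was 1.00, that of the bitter taste receptors 0.38 and that of the trace amine-associated receptors 0.92. Whether level bears on the changes of these families was not tested. Of 26 bitter taste receptor genes 3 rose, Tas2r108 by 2.54 ± 0.81, Tas2r113 by 1.75 ± 0.71 and Tas2r138 by 2.09 ± 0.87 in the authors' deposited table, and the median was 1.15. Of 15 trace amine-associated receptor genes, the other family of receptors of the main nasal epithelium, 0 rose by limma and 0 had an unadjusted p under 0.05, and their median was 0.47 in the authors' deposited table, with Taar7d at 1.04 ± 0.72. In PGCs 0 of each family passed, and the medians were 0.033, -0.20, -0.11 and -0.63 in that order. The difference between families was not tested.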
